A study of Mus musculus with 6 samples.

Results

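The cytochrome P450 genes of families 1 to 4 were described in livers of 3 mouse genotypes that differed in the SV40 proteins made. Members were all probe sets with a gene symbol of their own, no other gene sharing the probe set, that began with Cyp, a digit 1 to 4 and a letter. This gave 56 genes of 18193 on the arrays, in 19 subfamilies. They were measured by 69 probe sets of 45265, or 58 of 22690 on the Affymetrix 430A array and 11 of 22575 on the 430B array. Of these, 45 genes had 1 probe set, 9 had 2 and 2 had 3.

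Livers came from male B6SJL hybrid mice aged 32 to 37 days. LT livers carried ApoErtTA:TRE2-TAg and were induced to make SV40 large T antigen (LT) together with small t antigen (st). 17kT livers were labelled with the same transgene pair, written TRE2-TA in the genotype field, and made the shorter 17kT protein together with st. WT livers carried no transgene. Doxycycline, the drug that switches the rtTA system on, was given to all 3 genotypes, non-transgenic mice too, for 4 days in water (25 µg/ml, plus 2.5% sucrose). In this system an rtTA activator acts on a TRE promoter in the presence of doxycycline, and the series title describes the expression as liver-specific. There was 1 array per genotype and design, so no value below has a replicate or a p-value, and all LT and 17kT ratios to WT share the WT arrays. The rtTA transgene, the oncoprotein and st differ from WT together and cannot be told apart. The sources used here do not say whether an RNA sample was 1 animal or a pool.

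Cytochrome P450 enzymes are heme proteins that insert an oxygen atom into their substrates, with electrons passed on by P450 reductase and cytochrome b5. Hepatocytes hold most of the body's supply: families 1 to 3 oxidise drugs, toxicants, steroids and retinoids, and family 4 oxidises the ends of fatty acids and eicosanoids. Many of these genes are switched on by ligand-bound receptors, such as the aryl hydrocarbon receptor (AhR) for the CYP1 genes, CAR and PXR for CYP2B, CYP2C and CYP3A, and PPAR alpha for CYP4A, and many are highest in hepatocytes near the central vein.

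Values are MAS5 signals, in linear intensity units scaled to the same trimmed mean on each array. A signal under the median of its design (90.4 on 430A, 140.5 on 430B) was treated as that floor, and a gene counted as higher or lower at 2-fold or more. A gene at the floor on 1 of the 2 arrays compared gives a bound, written "at least". Of the 56 genes, 30 were above the floor on all 3 arrays, 16 on 1 or 2 of them and 10 on none. Those 10 were Cyp1b1, Cyp2b13, Cyp2b19, Cyp2c65, Cyp2d12, Cyp2j9, Cyp2j13, Cyp2s1, Cyp3a16 and Cyp4f18. The number of P450 genes above the floor was 35 in LT liver, 37 in 17kT liver and 42 in WT liver. Genes above the floor in WT and at the floor in the transgenic liver numbered 8 for LT and 9 for 17kT.

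Most P450 genes had lower signals in both transgenic livers. In LT against WT, 28 of 43 measured genes (65.1%) were lower, 1 was higher and 14 were neither, while among all 12775 measured genes 9.01% were lower and 11.1% higher. In 17kT against WT, 32 of 46 (69.6%) were lower, 2 were higher and 12 neither, against 8.64% lower and 9.97% higher among all 12992. A gene at the floor on 1 of the arrays compared counts as measured through the other array alone, which fixes its direction. This holds for 9 of the 43 genes in LT and 13 of the 46 in 17kT, and the same rule was used for all genes. The median log2 ratio of the P450 genes was -2.13 for LT and -1.98 for 17kT, with genes at the floor entered at their bound, beside 0.023 and 0.075 for all genes. At 4-fold or more, 22 genes were lower in LT liver and 22 in 17kT liver, 19 of them in both. At 8-fold or more there were 12 in each. Altogether 27 genes were lower in both, 1 passed 2-fold in LT only (Cyp4b1) and 5 in 17kT only (Cyp2c38, Cyp2c39, Cyp2c55, Cyp2c68 and Cyp2j6), which is a split by size and not a test of a difference. Technical spread can be judged from 100 probe sets present on both designs. The SD of a single log2 ratio was 0.23 for LT over WT and 0.28 for 17kT over WT. The designs were also offset from each other, with median differences of -0.25 for LT over WT and 0.19 for 17kT over WT. Pairs of different probe sets of the same gene gave larger SDs, 0.58 over 5029 pairs and 0.57 over 5191 pairs. All these SDs are for a single ratio and not for the differences between ratios, and none gives the variation between animals of a genotype.

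**Figure D1:**
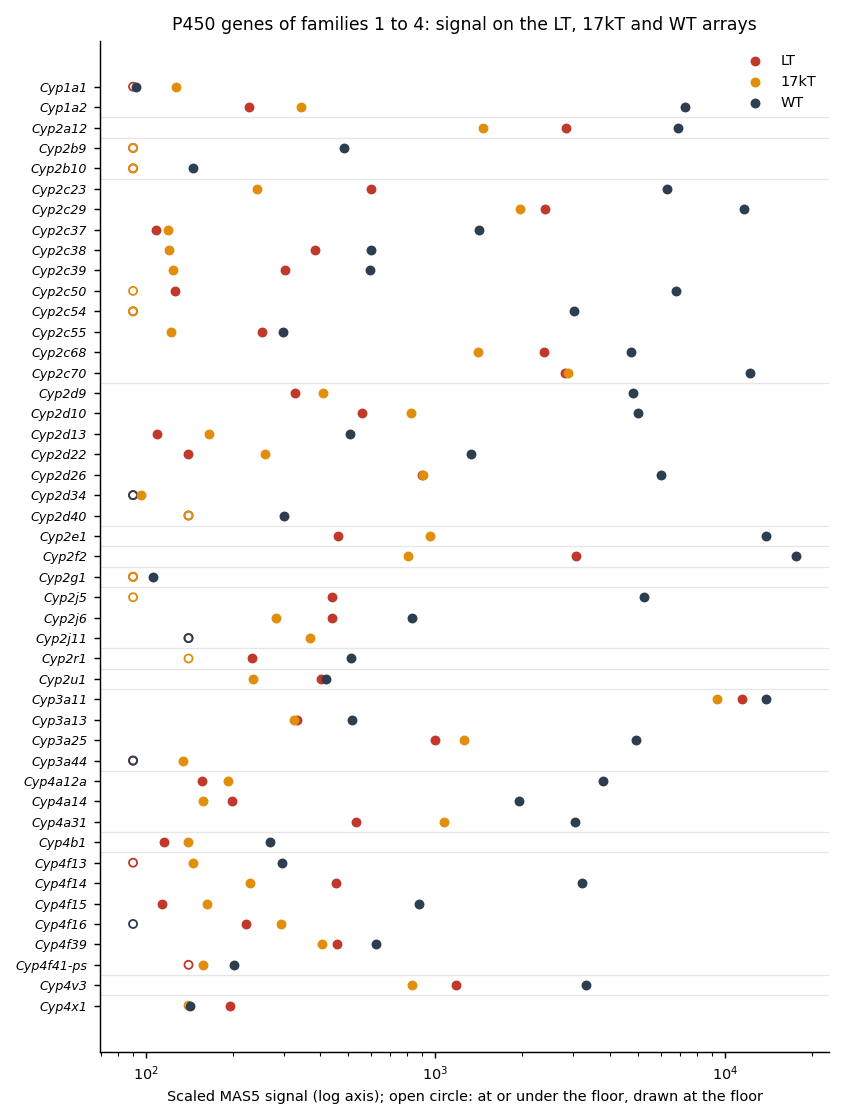
Scaled MAS5 signal (log axis) of each P450 gene above the floor on at least 1 array, with 1 point per array for LT, 17kT and WT; open circles are signals at or under the floor, drawn at it. For Cyp1a2, Cyp2e1, Cyp2c50 and Cyp4a12a the WT point stands far to the right of both transgenic points, while for Cyp3a11 all 3 points lie between 9416 and 13869.

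**Figure D2:**
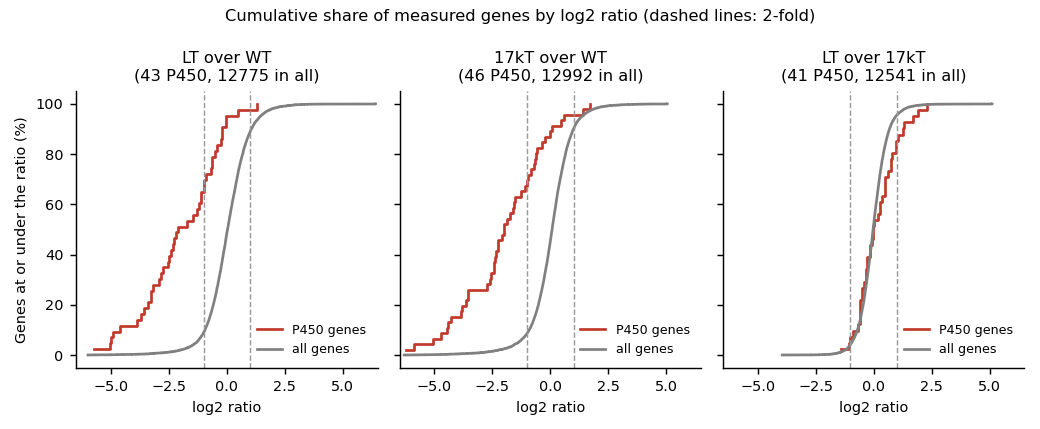
Cumulative share of measured genes (%) against the log2 ratio for P450 genes and for all genes, in 3 panels for LT over WT, 17kT over WT and LT over 17kT. The P450 curve is displaced to negative ratios in both panels against WT, with medians of -2.13 and -1.98. In LT over 17kT the median of the P450 genes (-0.012) is near that of all genes (-0.026). More P450 genes lie beyond 2-fold there, 14.6% higher and 7.32% lower, beside 4.47% and 4.23% of all genes.

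The starts of 6 of these genes are shown because they span the outcomes described next: Cyp1a2, Cyp2e1 and Cyp2c50 had the largest decreases of the CYP1A, CYP2E and CYP2C genes in LT liver, Cyp2c70 an intermediate decrease, Cyp3a11 stayed within 2-fold of WT, and Cyp4f16 was higher. Each window holds 250 bases before and 50 after the annotated start, 5′ to 3′ on the gene's strand, from RefSeq on GRCm38.p6. Capitals mark matches, on either strand, to motifs. The letters TATAAA are those of a TATA box and CAAAGTCCA for a site type of the liver factor HNF4A. AGGTCA stands for the core bound by many nuclear receptors and GCGTG for the AhR core. CCAAT names the promoter box of those letters, which reads ATTGG where it lies on the other strand. Positions are counted from base 1 of the window. The windows are Cyp1a2 (chr9:57683606-57683905, minus strand), Cyp2e1 (chr7:140763569-140763868, plus strand), Cyp2c50 (chr19:40089429-40089728, plus strand), Cyp2c70 (chr19:40187237-40187536, minus strand), Cyp3a11 (chr5:145879805-145880104, minus strand) and Cyp4f16 (chr17:32536307-32536606, plus strand).
Cyp1a2: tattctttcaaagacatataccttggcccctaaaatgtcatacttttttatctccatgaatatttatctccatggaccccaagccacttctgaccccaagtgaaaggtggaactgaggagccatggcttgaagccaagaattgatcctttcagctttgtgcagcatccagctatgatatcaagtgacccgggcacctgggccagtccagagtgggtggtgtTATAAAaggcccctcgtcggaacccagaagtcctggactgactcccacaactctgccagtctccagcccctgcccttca
Cyp2e1: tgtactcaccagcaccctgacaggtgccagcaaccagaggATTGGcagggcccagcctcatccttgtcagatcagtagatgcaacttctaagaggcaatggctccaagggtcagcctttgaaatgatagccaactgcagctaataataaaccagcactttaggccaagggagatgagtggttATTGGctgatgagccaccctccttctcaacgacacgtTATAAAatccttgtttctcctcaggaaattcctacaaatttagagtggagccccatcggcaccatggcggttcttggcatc
Cyp2c50: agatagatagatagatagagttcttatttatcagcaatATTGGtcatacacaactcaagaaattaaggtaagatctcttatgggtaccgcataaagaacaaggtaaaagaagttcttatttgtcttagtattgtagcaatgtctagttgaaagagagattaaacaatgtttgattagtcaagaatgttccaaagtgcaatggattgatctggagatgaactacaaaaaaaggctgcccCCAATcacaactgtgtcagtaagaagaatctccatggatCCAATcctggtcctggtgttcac
Cyp2c70: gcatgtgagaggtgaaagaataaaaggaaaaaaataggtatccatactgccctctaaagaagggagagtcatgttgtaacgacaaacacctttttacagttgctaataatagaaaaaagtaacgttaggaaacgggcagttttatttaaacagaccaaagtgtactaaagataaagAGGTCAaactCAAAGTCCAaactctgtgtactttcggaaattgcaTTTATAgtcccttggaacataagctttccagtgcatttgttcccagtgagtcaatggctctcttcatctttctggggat
Cyp3a11: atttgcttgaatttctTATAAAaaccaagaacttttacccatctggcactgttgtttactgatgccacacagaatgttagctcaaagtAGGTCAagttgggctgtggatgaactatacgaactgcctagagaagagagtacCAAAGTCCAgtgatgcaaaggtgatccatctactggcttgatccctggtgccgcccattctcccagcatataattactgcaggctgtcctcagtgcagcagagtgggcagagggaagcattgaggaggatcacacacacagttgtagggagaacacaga
Cyp4f16: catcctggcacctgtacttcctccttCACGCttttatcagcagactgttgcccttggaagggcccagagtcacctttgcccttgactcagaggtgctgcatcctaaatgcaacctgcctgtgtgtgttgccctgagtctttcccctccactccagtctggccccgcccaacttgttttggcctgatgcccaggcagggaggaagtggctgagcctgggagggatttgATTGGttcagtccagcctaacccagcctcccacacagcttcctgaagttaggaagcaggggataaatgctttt
TATAAA began at base 222 in Cyp1a2 and 220 in Cyp2e1, just upstream of the start, and at base 17 in Cyp3a11. In Cyp2c70 the match at base 222 was on the other strand and reads TTTATA. The HNF4A-type match lay at base 187 in Cyp2c70, which was lower in both transgenic livers, and at base 142 in Cyp3a11, which stayed within 2-fold of WT. Cyp2c50 had the CCAAT motif at bases 39, 239 and 278, Cyp2e1 at 41 and 183, and Cyp4f16 at 228, with an AhR core on the other strand at base 27.

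Across the family, 49 windows of 43 P450 genes were in the RefSeq table, beside 32851 windows of all genes, and both strands were searched. TATAAA was found in 18 P450 windows (36.7%) and in 13.6% of all windows. CCAAT was found in 25 (51.0%) and 37.4%, AGGTCA in 13 (26.5%) and 16.3%, and CAAAGTCCA in 5 (10.2%) and 0.475%. The 5 windows with CAAAGTCCA were those of Cyp2c65, Cyp2c68, Cyp2c70, Cyp3a11 and Cyp3a16. GCGTG was in 12 (24.5%) and 32.4%, GTTAAT (the HNF1 type) in 3 (6.12%) and 7.10%, and TTCNNNGAA (the STAT type) in 3 (6.12%) and 8.30%. TTGCGCAA (a C/EBP type) was in 0 of the 49 and in 0.183% of all. Among the 24 windows of genes lower in both transgenic livers, 17 (70.8%) held CCAAT, 10 (41.7%) TATAAA, 8 (33.3%) AGGTCA, 3 (12.5%) GCGTG and 1 CAAAGTCCA. Matches to the 8 motifs may overlap, related genes share sequence, and a match is a description of letters only.

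Cyp1a2, which metabolises caffeine and arylamines near the central vein, had one of the largest decreases. Its signal was 227 in LT liver and 343 in 17kT liver, against 7265 in WT liver. This is 32.0-fold lower in LT and 21.2-fold lower in 17kT, and both transgenic arrays were far under WT. Its neighbour Cyp1a1, the AhR target that responds to dioxin-like compounds, was near the floor in all 3 livers, with signals of 80.9 in LT, 128 in 17kT and 92.9 in WT. Cyp1b1, the third AhR target of the list, was at the floor on every array.

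The CYP2C genes, which oxidise drugs, arachidonic acid and retinoids and lie next to each other in the genome except for Cyp2c23, were lower throughout 17kT liver. All 10 measured Cyp2c genes passed 2-fold in 17kT (median -2.45) and 6 of 10 in LT (median -2.21). Cyp2c50 had the largest decrease of the P450 genes in LT liver and the largest bound in 17kT liver: 126 in LT and 32.3 in 17kT, against 6782 in WT, or 54.0-fold lower in LT and at least 75.03-fold lower in 17kT. Its neighbour Cyp2c54 was at the floor in both transgenic livers, with 27.4 in LT and 65.8 in 17kT, against 3013 in WT, which is at least 33.3-fold lower in each. Cyp2c23, the gene that encodes an arachidonic acid epoxygenase, had 599 in LT and 243 in 17kT, against 6313 in WT, or 10.5-fold and 26.0-fold lower. In these 3 genes both transgenic signals were far under WT, though LT and 17kT differed in size.

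Cyp2c37 was 13.1-fold lower in LT (108) and 11.8-fold lower in 17kT (119.8), against 1419 in WT. Cyp2c29, a CAR target, had 2387 in LT and 1966 in 17kT, against 11657 in WT, and was 4.88-fold and 5.93-fold lower. Cyp2c70, which makes the muricholic acids of mouse bile and has the HNF4A-type match shown above, had 2798 in LT, 2864 in 17kT and 12223 in WT, or 4.37-fold and 4.27-fold lower. The LT and 17kT signals of these 3 genes lay close together.

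Another set of CYP2C genes was lower in 17kT and within 2-fold of WT in LT. Cyp2c38 had 385 in LT and 119.8 in 17kT, against 599.6 in WT, or log2 ratios of -0.64 and -2.32. Cyp2c39, a retinoic acid hydroxylase, had 302 in LT and 124 in 17kT, against 593 in WT, or 1.96-fold and 4.78-fold below WT. Cyp2c55 had 253 in LT and 122 in 17kT, against 297 in WT. For all 3 genes the 17kT array was the low one and the LT array lay between 17kT and WT. Cyp2c68, which also holds CAAAGTCCA, had 2381 in LT and 1407 in 17kT, against 4750.2 in WT, and was 3.38-fold lower in 17kT and 1.995-fold below WT in LT, just short of 2-fold.

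The CYP2D genes were lower in both transgenic livers in 6 of 6 measured genes for LT (median -2.96) and 6 of 7 for 17kT (median -2.37). Cyp2d9, the male-biased testosterone hydroxylase of mouse liver, had 326 in LT and 409.6 in 17kT, against 4820.0 in WT, or 14.8-fold and 11.8-fold lower. Cyp2d10 had 557 in LT and 827 in 17kT, against 5016 in WT, or 9.01-fold and 6.07-fold lower. Cyp2d26 had 902 in LT and 909 in 17kT, against 6021 in WT, or 6.68-fold and 6.62-fold lower. In each of these genes both transgenic arrays stood well under WT.

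Cyp2d22 had 139.6 in LT and 258 in 17kT, against 1332 in WT, or 9.54-fold and 5.17-fold lower. Its second probe set gave log2 ratios of -2.45 and -1.39. Cyp2d13, a transcribed pseudogene in RefSeq, had 109.7 in LT and 166 in 17kT, against 506 in WT, or 4.62-fold and 3.05-fold lower. Cyp2d40 was at the floor in both transgenic livers and at 301 in WT, at least 2.14-fold lower. Cyp2d34 was the CYP2D gene outside this pattern: it was near the floor everywhere, with 51.8 in LT, 96.3 in 17kT and 27.3 in WT. The CYP2D genes form a run of 8 neighbours in RefSeq.

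Cyp2e1, the pericentral enzyme that oxidises ethanol and acetaminophen, had 460.1 in LT and 962 in 17kT, against 13905 in WT. It was 30.2-fold lower in LT and 14.4-fold lower in 17kT. Cyp2f2, known for activating naphthalene, was 5.78-fold lower in LT (3051) and 22.0-fold lower in 17kT (803), against 17647 in WT. Thus both genes were lower in both livers, with LT the lowest for Cyp2e1 and 17kT the lowest for Cyp2f2. Cyp2a12, a steroid hydroxylase in mouse, had 2830 in LT and 1461 in 17kT, against 6895 in WT, or 2.44-fold and 4.72-fold lower.

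The CYP2B genes are the classical targets of CAR and were near the floor in the transgenic livers. Cyp2b9 had 45.4 in LT and 45.8 in 17kT, against 483 in WT, which is at least 5.34-fold lower in each. Cyp2b10 had 87.5 in LT and 63.2 in 17kT, against 146 in WT, a bound of -0.69 on the log2 scale in both. Cyp2g1, known from olfactory epithelium, was at the floor in LT and 17kT and at 106 in WT.

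The CYP2J genes, several of which make epoxides of arachidonic acid, did not move alike. Cyp2j5 had 441 in LT and 5.97 in 17kT, against 5259 in WT, or 11.9-fold lower in LT and at least 58.2-fold lower in 17kT. Its second probe set was at the floor in both transgenic livers and at 160 in WT, and gave a bound of only -0.83. Cyp2j6 had 439 in LT and 282 in 17kT, against 833 in WT, or 1.90-fold below WT in LT and 2.95-fold lower in 17kT, with its 430A probe set at log2 ratios of 0.12 and -0.64. Cyp2j11 went the other way in 17kT: it was at the floor in LT (71.4) and in WT (79.3) and had 369 in 17kT, at least 2.63-fold higher than WT. For Cyp2j5 the 17kT array was lowest and for Cyp2j11 it was highest.

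Cyp2r1, which hydroxylates vitamin D in the liver, had 233 in LT and 132 in 17kT, against 512 in WT, or 2.20-fold and at least 3.64-fold lower. Cyp2u1, a fatty acid hydroxylase, had 404 in LT and 234 in 17kT, against 419.7 in WT, and neither ratio passed 2-fold.

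Of the 3 CYP3A genes measured in LT, 1 was lower, and of the 4 in 17kT, 1. Cyp3a11, the PXR target that carries much of drug oxidation in mouse liver, had 11478 in LT and 9416 in 17kT, against 13869 in WT. Its log2 ratios were -0.27 and -0.56, both under 2-fold, in a window with the same HNF4A-type letters as Cyp2c70. Cyp3a13 had 332 in LT and 325 in 17kT, against 517 in WT, also within 2-fold. Cyp3a25 was lower in both, with 998 in LT and 1255 in 17kT, against 4951 in WT, or 4.96-fold and 3.95-fold. Cyp3a44, a female-biased gene in mouse liver, was at the floor in LT (53.1) and WT (68.8) and at 135 in 17kT.

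The CYP4A genes encode fatty acid omega-hydroxylases under PPAR alpha, and all 3 measured genes were lower in both livers (median -3.29 in LT and -3.63 in 17kT). Cyp4a12a, a male-biased gene whose product makes an eicosanoid from arachidonic acid, had 157 in LT and 193 in 17kT, against 3801 in WT, or 24.2-fold and 19.7-fold lower. Cyp4a14 had 199 in LT and 157 in 17kT, against 1947 in WT, or 9.77-fold and 12.4-fold lower. Cyp4a31 had 531 in LT and 1073 in 17kT, against 3040.2 in WT, or 5.73-fold and 2.83-fold lower. Its other probe set, on 430A, was at the floor on all 3 arrays. The transgenic arrays were below WT for each gene, by the least for Cyp4a31 in 17kT.

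The CYP4F genes, which inactivate leukotrienes and oxidise long fatty acids, were mixed: 3 of 6 measured genes were lower and 1 higher in each transgenic liver. Cyp4f14, which in mouse oxidises leukotriene B4, had 452 in LT and 229 in 17kT, against 3211 in WT, or 7.10-fold and 14.0-fold lower. Cyp4f15 had 114 in LT and 163 in 17kT, against 878 in WT, or 7.73-fold and 5.38-fold lower. Cyp4f13 had 86.3 in LT and 146 in 17kT, against 297 in WT, or at least 3.28-fold and 2.03-fold lower. Cyp4f16, by contrast, was at the floor in WT.

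The signals of Cyp4f16 were 222 in LT and 292 in 17kT, against 84.9 in WT. The gene was thus at least 2.46-fold higher in LT and at least 3.23-fold higher in 17kT, the only P450 gene higher in both by the 2-fold rule. A second probe set of Cyp4f16, of a kind that can bind several genes, was at the floor on all 3 arrays. Cyp4f39 had 459 in LT and 406 in 17kT, against 623 in WT. Cyp4f41-ps, a pseudogene, had 92.8 in LT and 158 in 17kT, against 202 in WT. Neither passed 2-fold, and the 6 measured CYP4F genes are neighbours in RefSeq.

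Cyp4v3, the mouse counterpart of human CYP4V2, a fatty acid hydroxylase, had 1181 in LT and 834 in 17kT, against 3305 in WT, or 2.80-fold and 3.96-fold lower. Cyp4b1, an enzyme mostly known from lung, had 116 in LT and 140.0 in 17kT, against 269 in WT, or 2.33-fold lower in LT and 1.92-fold below WT in 17kT. Cyp4x1 had 195 in LT and 114 in 17kT, against 143 in WT, within 2-fold in both.

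**Figure D3:**
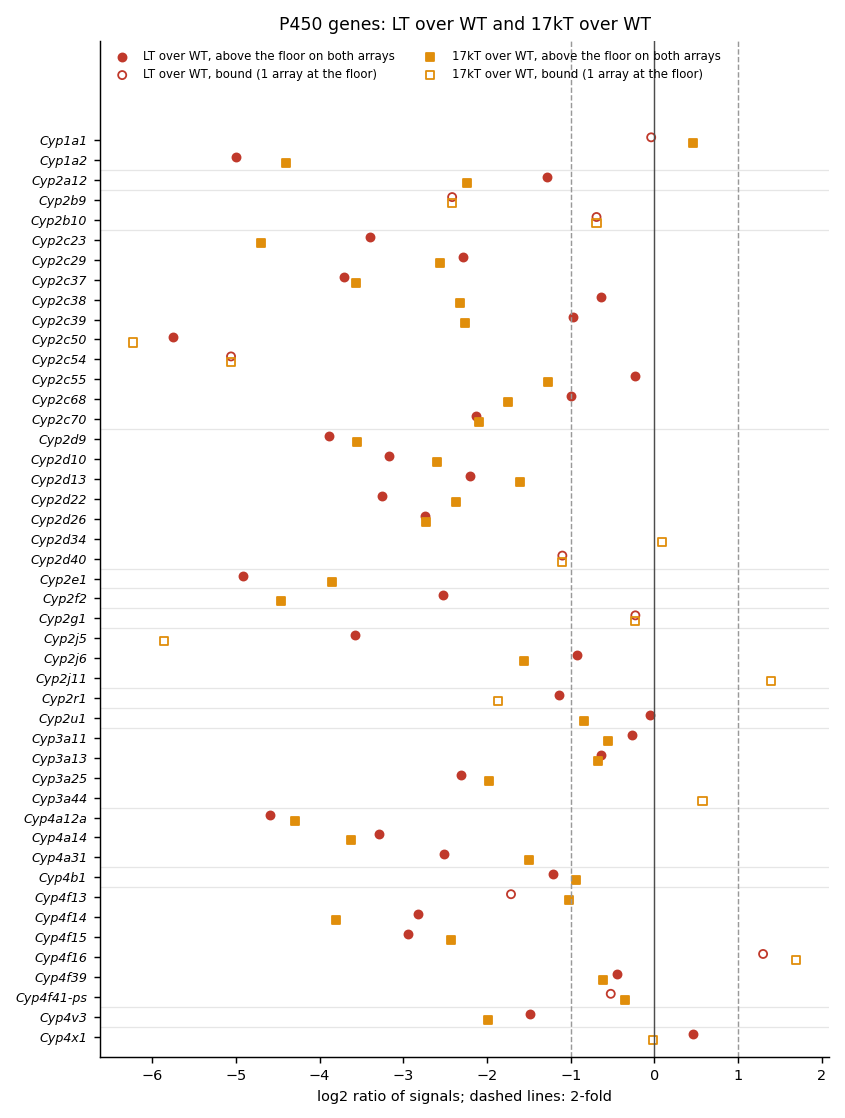
Log2 ratio of LT over WT (circles) and 17kT over WT (squares) for each measured P450 gene, grouped by subfamily; open marks are bounds with 1 array at the floor, and dashed lines mark 2-fold. Most marks lie left of the lower 2-fold line, Cyp2c50 farthest, and Cyp4f16 and, for 17kT, Cyp2j11 lie right of the upper one.

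The counts by family and list below stand beside 65.1% lower in LT and 69.6% in 17kT over all P450 genes, medians -2.13 and -1.98. Over all genes 9.01% and 8.64% were lower. By family, the lower genes were 1 of 2 in CYP1 in both livers. In CYP2 they were 18 of 26 in LT and 23 of 28 in 17kT, with medians of -2.25 and -2.29. In CYP3 they were 1 of 3 and 1 of 4, and in CYP4 8 of 12 and 7 of 12, with medians of -1.60 and -1.26. By known regulation, the targets of CAR or PXR were lower in 6 of 10 for LT and 7 of 11 for 17kT. Their medians were -2.30 and -1.98, and these values lie near those of all P450 genes. Genes known as pericentral, a list that also holds Cyp7a1 and Cyp27a1 of other families, were lower in 9 of 12 and 10 of 12, medians -3.28 and -3.07. Genes known as male-biased in mouse liver, a list that also holds Cyp7b1, were lower in 8 of 9 in each, medians -3.58 and -3.86. Genes known as female-biased, with Cyp17a1 among them, were lower in 2 of 6 and 4 of 7, medians -0.96 and -2.26. In these male livers some of them could not be called lower. Cyp2b10 (146 in WT) and Cyp17a1 (174 in WT) lay less than 2-fold over the floor of 90.4. Cyp3a44 was at the floor in WT. The counts of the male-biased and female-biased lists are thus not on an equal footing. A list of genes better known from other tissues had 3 of 7 lower in LT (Cyp2f2, Cyp2r1 and Cyp4b1), 2 of 7 in 17kT (Cyp2f2 and Cyp2r1) and 1 of 7 higher in each (Cyp4f16), but Cyp2f2, with 17647 in WT liver, and Cyp2r1 are liver genes too, so the list does not stand for genes absent from hepatocytes. Among runs of neighbouring genes in RefSeq, the CYP2C run had 5 of 9 measured genes lower in LT and 9 of 9 in 17kT, and the run from Cyp2s1 through the CYP2B genes to Cyp2f2 had 3 of 5 in each. The lists overlap, their differences from each other were not tested, and closely related genes may share probe binding, so the value of a gene within CYP2B, CYP2C, CYP2D, CYP3A or CYP4A is uncertain to that degree.

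Most P450 genes did not differ by 2-fold between LT and 17kT livers. In LT against 17kT, 6 of 41 measured genes (14.6%) were higher, 3 (7.32%) lower and 32 neither, where 4.47% of 12541 genes were higher and 4.23% lower. The median log2 ratio was -0.012, beside -0.026 for all genes. The 6 genes higher in LT were Cyp2j5 (at least 4.88-fold), Cyp2f2 (3.80-fold), Cyp2c38 (3.21-fold), Cyp2c23 (2.47-fold), Cyp2c39 (2.43-fold) and Cyp2c55 (2.07-fold). All belong to family 2, which holds 23 of the 41 measured genes, and 4 of 9 measured Cyp2c genes were among them. The 17kT signals of Cyp2c38, Cyp2c39 and Cyp2c55 (119.8, 124 and 122) were near the floor of 90.4, and that of Cyp2j5 was at the floor. The 3 genes lower in LT were Cyp2j11 (at least 2.63-fold), Cyp2e1 (2.09-fold) and Cyp4a31 (2.02-fold). The signals behind these ratios are those given above for each gene. On the 100 probe sets shared by the designs, the SD of a single LT over 17kT log2 ratio was 0.26. The median difference between the designs was -0.36. From pairs of probe sets of a gene the SD of a single ratio was 0.48 over 5013 pairs. The ratios near 2-fold are thus within a few such SDs of 0. These SDs do not give the variation between animals, so the larger ratios are not shown to exceed it either. The LT arrays alone were washed on fluidics station 2 and the others on station 1, so station and genotype cannot be told apart in either comparison of LT. The 17kT arrays alone were on modules 3 and 4, and the WT and LT arrays on modules 1 and 2. Module and genotype therefore cannot be told apart in either comparison of 17kT.

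**Figure D4:**
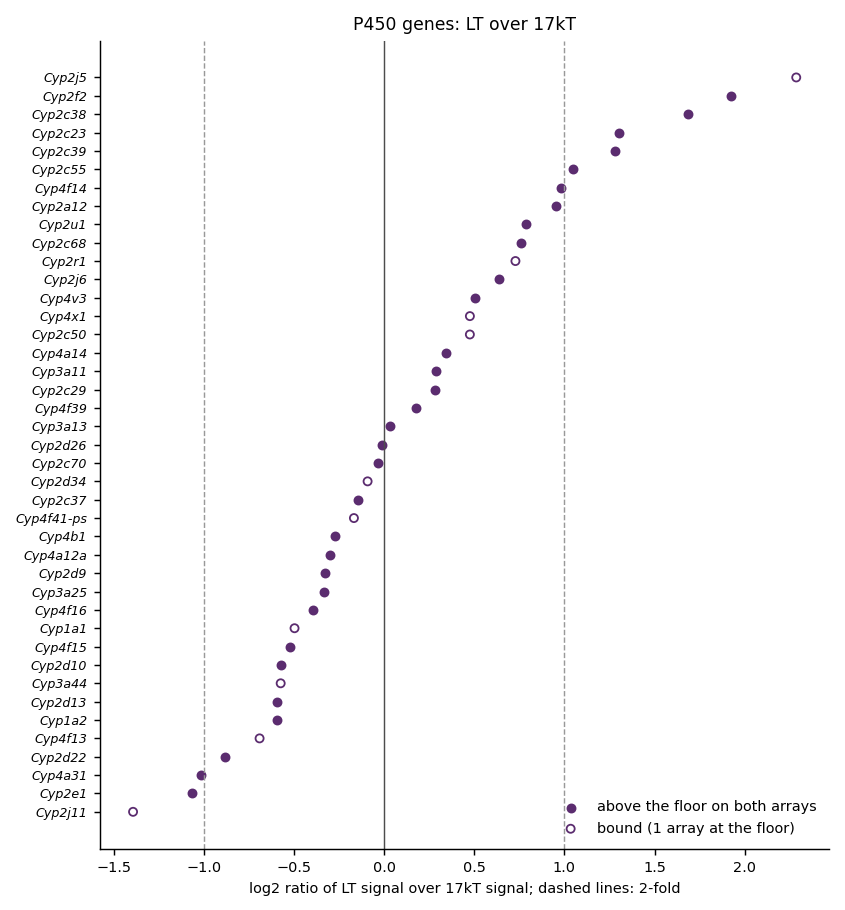
Log2 ratio of LT over 17kT for each measured P450 gene, sorted; open marks are bounds and dashed lines mark 2-fold. The 6 genes right of the upper line are all of family 2, which holds 23 of the 41 measured genes. Cyp2j11, Cyp2e1 and Cyp4a31 lie left of the lower line.

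Another list joined genes tied to electron transfer to the P450 enzymes with genes of heme synthesis and of heme breakdown. Of 19 measured, 8 were lower in LT and 0 higher, and in 17kT 3 were lower and 1 higher, with medians of -0.60 and -0.57, where 9.01% of all genes were lower in LT and 8.64% in 17kT. Cyb5a, which encodes cytochrome b5, had 3221 in LT and 4512 in 17kT, against 8035 in WT, or 2.49-fold lower in LT and a log2 ratio of -0.83 in 17kT. Cyb5b had log2 ratios of -1.37 and -1.67. Alas1, the rate-limiting enzyme of heme synthesis in liver, was within 2-fold of WT, at 0.58 and -0.064. Alas2, its erythroid counterpart, was at -3.81 and -3.63, with 124 in LT and 141 in 17kT, against 1742 in WT. Of the other erythroid markers, Klf1 was just above the floor in WT only (92.1). Hba-a1, Epb42 and Slc4a1 were at the floor on all 3 arrays. The part of erythroid cells in the Alas2 values was not tested. Hmox1, which breaks heme down, was at 0.46 in LT and 1.46 in 17kT. It was the 1 gene of the list higher in 17kT. Alas2 and Blvrb, the latter also of heme breakdown, were among the 8 lower in LT, so the counts are not of supply genes alone. The electron donor Por was not analysed here.

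Among receptors and factors known to control P450 genes, 2 of 30 measured were higher and 3 lower in LT (median -0.021), and 3 of 29 were higher and 5 lower in 17kT (median 0.0030). The LT counts are near the shares of all genes, 11.1% higher and 9.01% lower in LT, beside 9.97% and 8.64% in 17kT. Nr1i3, which encodes CAR, was at the floor in both transgenic livers, with 14.6 in LT and 6.39 in 17kT, against 359 in WT, at least 3.98-fold lower. Ppara had 941 in LT and 972 in 17kT, against 2146 in WT, with log2 ratios of -1.19 and -1.14. Both were lower in both transgenic livers. Nr1i2 (PXR) was at -0.27 and -0.21 and Ahr at -0.65 and -0.85, both within 2-fold. Hnf4a had 2621 in LT and 2458 in 17kT, against 2981 in WT, with log2 ratios of -0.19 and -0.28.

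Cebpa, a hepatocyte factor, differed between the transgenic livers: 1221 in LT and 538 in 17kT, against 2244 in WT, or log2 ratios of -0.88 and -2.06. Nr0b2 was lower in both (-1.30 and -1.92) and Nr1h4, the bile acid receptor, passed 2-fold in 17kT (-0.74 and -1.09). Higher were Nfe2l2, the oxidative stress factor, in both (1.05 and 1.22), Prox1 in LT (1.25 and 0.13), and Cux2, a female-biased factor of mouse liver, and Tef in 17kT (0.70 and 1.40 for Cux2, -0.46 and 1.07 for Tef). No link between any factor and any P450 gene was tested.

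**Figure D5:**
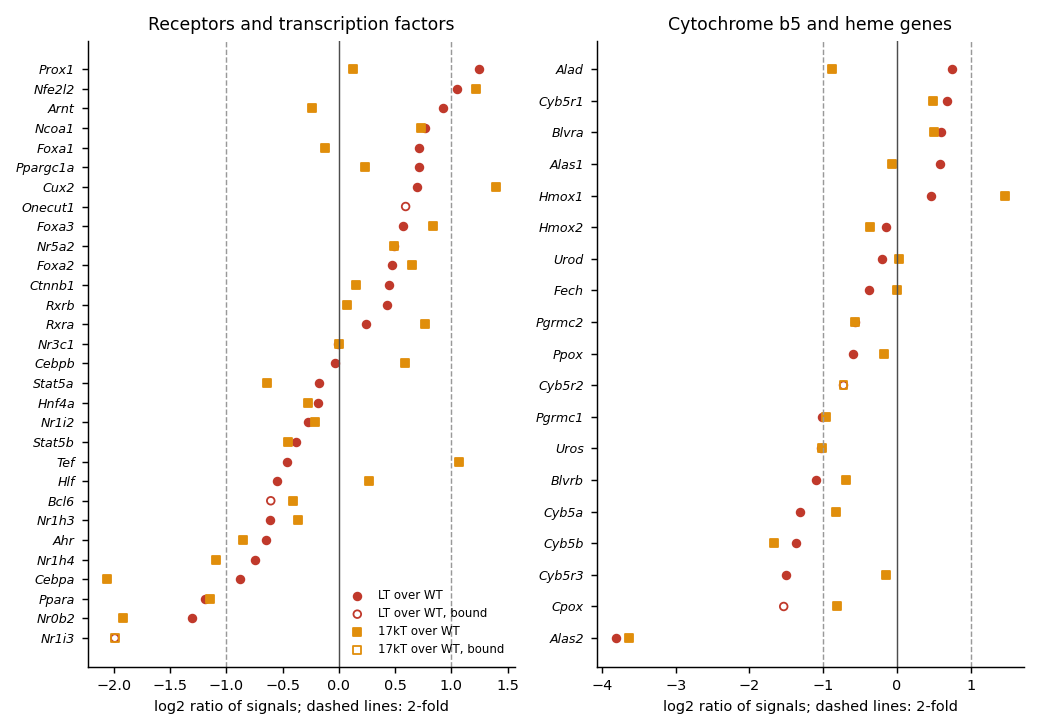
Log2 ratio of LT over WT (circles) and 17kT over WT (squares) for receptors and transcription factors (left panel) and for cytochrome b5 and heme genes (right panel); open marks are bounds and dashed lines mark 2-fold. Most factors lie between the lines, with Nr1i3, Ppara and Nr0b2 left of them in both comparisons.

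Where a gene had more than 1 measured probe set, the directions mostly matched. This held for 6 of 7 such genes in LT against WT, the exception being Cyp2j6, for 7 of 7 in 17kT against WT and for 4 of 4 in LT against 17kT. No pair differed by 2-fold in opposite directions. Over probe sets in place of genes, 31 of 50 were lower and 1 higher in LT, and 35 of 53 lower and 2 higher in 17kT.

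These were bulk livers, so fewer hepatocytes and less RNA per hepatocyte cannot be told apart. The liver label matched the markers: Alb, the albumin gene, had 23851 in LT and 18262 in 17kT, against 28283 in WT. Of 18 measured hepatocyte markers, 4 were lower in LT and 8 in 17kT and none was higher, beside 9.01% and 8.64% of all genes lower. Their medians were -0.65 and -0.78, and their summed signal was 226205 in LT and 180842 in 17kT, against 332377 in WT. Markers of dividing cells were higher in 11 of 11 in both (medians 2.96 and 3.56), with summed signals of 20406 in LT and 23765 in 17kT, against 2591 in WT. The largest decrease among the hepatocyte markers was that of Asgr1, a galactose receptor subunit, at -2.78 and -2.93. Bile duct and progenitor markers were higher in 3 of 3 measured in LT (Cd24a, Krt23 and Prom1) and 1 of 2 in 17kT (Krt23), with summed signals of 1459 in LT and 567 in 17kT, against 376 in WT, and the defining Krt7, Krt19, Sox9 and Epcam were at the floor on every array. Medians of the other cell lists in LT and 17kT were -0.19 and 0.18 for Kupffer cells (14 measured in each), -0.57 and -0.45 for endothelium (12), -0.27 and -0.089 for stellate cells (13), -0.48 and -0.25 for lymphocytes (4 and 5), 0.92 and 0.32 for neutrophils (5 and 4), -1.92 and -1.83 for erythroid cells (2) and -1.21 and 0.0084 for kidney, lung and gut epithelium (2). The part of these cell markers in the P450 values was not tested. The ratio of the 3′ to the 5′ probe set of Gapdh, a sign of RNA quality, was 3.08 and 3.16 on the LT arrays. It was 3.53 and 2.85 on the 17kT arrays, against 5.81 and 6.04 on the WT arrays. The same ratio for Actb did not set WT apart from LT. It was 2.52 and 2.50 in LT, 2.13 and 1.72 in 17kT, and 2.57 and 2.29 in WT. The part of RNA quality in the P450 values was not tested either.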

How the data were processed

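Each probe set has a linear signal intensity that the authors deposited. The submitters' processing notes name MAS5 and give no version. The values had already been scaled, since the trimmed mean lay between 250.03 and 250.12 on every array. Per array, 47.0% to 52.0% of probe sets lay above the floor used here. Gene names came from GEO's platform annotation: 20393 of 430A and 14674 of 430B had 1 gene symbol, 691 and 245 had several and 1606 and 7656 had none. Symbols were checked through gene identifiers against RefSeq (GRCm38.p6), and 0 member symbols changed. The 4 P450 probe sets with several symbols were left out of all counts.

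The 2% trimmed mean was made equal between the arrays of a design. Signals under the design's median were raised to it, and log2 ratios were formed between arrays of the same design. A gene was represented by its brightest probe set relative to the floor, and an _x_at probe set, a kind that can bind several genes, served only where there was no other. With no replicate array there was no test: genes were called at 2-fold, beside the same rule over all genes, and precision is limited by how few arrays there are. Signals were given for genes at least 4-fold changed against WT (25 genes), those called higher, those called in LT against 17kT and the largest ratio of each subfamily, and for others described with them. Neighbours were genes within 1 Mb in RefSeq order. The members and the 20 gene lists were chosen with earlier results of these data known. Another 13 settings, and 1 chosen after seeing the data, varied scaling, floor, size of change, probe set choice and design. Protein identity between members was not analysed here. Python 3.11.15, numpy 2.4.6, pandas 2.3.3 and matplotlib 3.10.9 were used.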

Additional observations from a re-analysis of the deposited data

Results flagged for a closer look

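The ratios of 2 P450 genes to WT had opposite signs in the transgenic livers. Cyp1a1 was at the floor in LT, which gives a bound of -0.039 on the log2 scale, and had a log2 ratio of 0.46 in 17kT. Cyp4x1 had 0.46 in LT and was at the floor in 17kT, a bound of -0.020. Each rests on 1 array per liver, no value passed 2-fold, and the differences were not tested. Over the processing settings the Cyp4x1 ratio in LT ran from -0.0087 to 0.67, so its sign was not kept. Outside the genes counted above, P450 probe sets that match several genes held a further signal over WT. Probe set 1419704_at, of the CYP3A subfamily, had 203 in LT and 2449 in 17kT, against 341 in WT, a log2 ratio of 2.84 in 17kT and of -0.75 in LT. Probe set 1430172_a_at, of CYP4F, had 125 in LT and 196 in 17kT, against 23.7 in WT, a bound of 1.12 in 17kT and of 0.47 in LT.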

How the results depend on the processing

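No paired analysis was possible because each genotype had 1 array per design. Directions of the counts and medians against WT were the same under all 13 other settings and the 1 chosen after seeing the data (scaling to the hybridisation controls). The count lower in LT against WT, 28 by the rule used, was 3 on 430B alone, which holds 8 measured P450 genes, and that in 17kT, 32, was 4 on 430B alone. The median in LT, -2.13, was -1.46 with the floor at the 25th percentile and -0.72 on 430B alone, and that in 17kT, -1.98, was -0.84 on 430B alone. The count higher in LT, 1, was 0 with the floor at the 75th percentile, with the floor as a pseudocount, at 3-fold and on 430B alone. The count higher in 17kT, 2, was 0 with the floor at the 75th percentile and 1 at 3-fold, on 430A alone and on 430B alone. In LT against 17kT, the 6 higher were 2 with the floor at the 75th percentile, 3 at 3-fold and 0 on 430B alone. The 3 lower were 6 with the floor at the 25th percentile, 1 with scaling to the median, as a pseudocount and on 430A alone, and 0 at 3-fold. Fewer genes are measured or called under these settings by construction, apart from the floor at the 25th percentile and scaling to the median. That floor let more P450 genes be measured, 53 beside 43 in LT against WT and 51 beside 41 in LT against 17kT. Scaling to the median put the LT over 17kT median of all genes at 0.14. Cyp2e1 was then at -0.90 and Cyp4a31 at -0.81, both under 2-fold.

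Scaling moved all genes together. Scaling to shared probe sets put the median of all genes in LT against WT at -0.25, and the hybridisation controls put it at 0.39 in LT and 0.42 in 17kT. The P450 median relative to all genes was then -2.10, -2.12 and -1.92, beside -2.15 in LT and -2.06 in 17kT by the rule used, and the controls left 25 and 28 P450 genes lower. In LT against 17kT the median of all genes was 0.14 with scaling to the median, -0.14 with shared probe sets and -0.12 with the controls. Of all calls over all genes in LT against WT, 55.2% were higher, and 28.1% with shared probe sets and 80.7% with the controls; in 17kT against WT the shares were 53.6%, 40.6% and 81.0%, and in LT against 17kT 51.4%, within 25.1% to 73.2%. Calls lost under at least 1 scaling or floor were those of Cyp2a12, Cyp2b9, Cyp2d13, Cyp2r1, Cyp4b1, Cyp4f13 and Cyp4f16 in LT against WT, and of Cyp2d40, which was not measured with the floor at the 75th percentile. In 17kT they were Cyp2b9, Cyp2c55, Cyp2c68, Cyp2d13, Cyp2d40 (not measured with that floor), Cyp2j11, Cyp2r1, Cyp4f13 and Cyp4f16, and Cyp2j6 on 430A alone. In LT against 17kT they were Cyp2c38, Cyp2c39, Cyp2c55, Cyp2e1, Cyp2j11, Cyp2j5 and Cyp4a31.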

Other observations

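Of 17 P450 genes of other families on the arrays, 12 were measured. In LT against WT 7 were lower, 0 higher and 5 neither, and in 17kT against WT 6 were lower, 1 higher and 5 neither, with medians of -1.08 and -1.02. Among all genes 9.01% were lower in LT and 8.64% in 17kT. Cyp27a1, which oxidises the cholesterol side chain in bile acid synthesis, had 441 in LT and 746 in 17kT, against 4270 in WT, or log2 ratios of -3.27 and -2.52. Cyp8b1, which sets the cholic acid share of bile acids, had log2 ratios of -3.16 and -2.95, Cyp7b1, an oxysterol hydroxylase, -3.05 and a bound of -3.86, and Cyp7a1, the rate-limiting enzyme of bile acid synthesis, -1.12 and -1.41. Cyp51, of cholesterol synthesis, had -2.12 and a bound of -2.97. The higher gene in 17kT was Cyp39a1, another oxysterol hydroxylase, at 0.25 in LT and 1.48 in 17kT.

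Among probe sets shared by several P450 genes, 1422230_s_at of CYP2A had 856 in LT and 234 in 17kT, against 2383 in WT, and 1424853_s_at of CYP4A had 184 in LT and 1332 in 17kT, against 4506 in WT. Their LT over 17kT log2 ratios were 1.87 and -2.86. The CYP4A probe set was thus nearer to WT in 17kT than in LT, as was Cyp4a31 among the named genes.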
